A study of Mus musculus with 26 samples.

Results

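Kinesins are motor proteins that use ATP to walk along microtubules, most of them toward the plus end, which in an axon points away from the cell body. They carry vesicles, mitochondria, cytoskeletal proteins and RNA from the soma to the terminals, and the reach and calibre of an axon set how much has to be carried. Other members of the superfamily work in the mitotic spindle, in the cilium, or in trimming microtubules. The kinesin genes are described here across 8 classes of mouse dorsal root ganglion neuron, whose axons differ in calibre from thick myelinated to thin unmyelinated fibres. The members are the genes with a symbol of Kif, a number and at most 1 letter from a to c and a digit. Of 39 symbols that start with Kif and a digit, 2 pseudogenes were left out, which left 37 genes of 39017 in the count table, and 35 of them passed the filter on low counts, among 17411 genes tested. Kif12 and Kif2b lay below that filter.

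The study sorted fluorescently labelled neurons of adult mice (P23 beyond) by flow cytometry and sequenced their RNA, to relate gene expression to the physiology of each class. Proprioceptors, the muscle afferents, came from PVIRESCre;R26tdtomato(Ai14) mice without tamoxifen and from thoracic ganglia only. Aβ Field-LTMRs (low-threshold mechanoreceptors) were labelled in TrkCCreER;Retf(GFP) mice given 2 mg of tamoxifen per day at P13 to P14. Aβ SA1-LTMRs were labelled in TrkCCreER;Retf(GFP) mice given 3 mg at E12.5. Aβ RA-LTMRs carried Npy2r-GFP, and Aδ-LTMRs TrkBCreER;R26tdtomato(Ai14) with 2 mg per day at E12 to E13. C-LTMRs were labelled in ThCreER;R26tdtomato(Ai14) mice given 2 mg per day at P13 to P14. Peptidergic nociceptors carried CGRP-GFP and nonpeptidergic nociceptors MrgD-EGFP, both without tamoxifen. Each library pooled several mice and several sorting rounds, with 3 libraries a class and 5 for Aβ RA-LTMRs, 26 in all. Proprioceptors, the 3 Aβ classes and Aδ-LTMRs were taken as A fibres (17 libraries), and C-LTMRs and nociceptors as C fibres (9 libraries). The names of the nociceptor and proprioceptor classes give no fibre type. Whether the nociceptor classes also held A-fibre neurons was not tested. Axon calibre was not measured: classes were placed in the textbook order of fibre classes, with tier 3 for proprioceptors, 2 for the Aβ classes, 1 for Aδ-LTMRs and 0 for C fibres. Class, reporter line, tamoxifen and, for proprioceptors, axial level cannot be told apart.

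Total counts ran from 10706522 to 66309214 per library. The gene that drove the reporter had its highest mean in its own class for Pvalb, Ntrk3, Ntrk2, Th, Calca and Mrgprd, with 2 exceptions. Npy2r averaged 20.4 ± 5.01 CPM in Aβ RA-LTMRs (SD, n = 5) and 52.9 CPM in peptidergic nociceptors. Ret, the locus of the GFP allele, averaged 449 ± 76.6 CPM in Aβ Field-LTMRs and 274 ± 37.6 CPM in Aβ SA1-LTMRs (n = 3 each), and 1356 CPM in C-LTMRs. Levels in CPM are counts scaled to a common library total. Of 15 satellite glia markers, all 15 were higher in A-fibre than in C-fibre libraries, with a summed level of 1089 to 5262 CPM in A-fibre libraries and 444 to 1624 CPM in C-fibre libraries, and none of the 15 was at 0 in any library. The mapped share of reads was 86.1% to 97.7% except in Aδ-LTMRs 1 and 2, with 61.4% and 74.5%, and the exonic share ran from 45.7% to 82.9%. Reads of Aβ SA1-LTMRs and of Aβ RA-LTMRs 1 to 3 had 25 to 50 bases. Those of Aδ-LTMRs 1 and 2 had 15 to 51 bases, and those of all other libraries 15 to 50. Differences that involve the Aβ or Aδ classes can thus coincide with read length. In pooled neurons, fewer cells with a transcript and less of it per cell cannot be told apart, and every p-value measures the spread between these pooled libraries.

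What makes these genes one family is the motor domain, and within it the P-loop that holds the phosphates of ATP. All 37 coding sequences (GENCODE M21, GRCm38) contain a Walker A pattern of 8 codons. The 9 flanking bases on each side are printed with it for the members that carry the results, and capitals mark the P-loop. The first 6 lines are paralogue pairs whose members changed by different amounts between A and C fibres, Kif5a with Kif5c, Kif13a with Kif13b and Kif21a with Kif21b, and the last 3 are Kif23, Kif26a and Kif26b.
Kif5a: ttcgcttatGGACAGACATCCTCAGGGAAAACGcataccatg
Kif5c: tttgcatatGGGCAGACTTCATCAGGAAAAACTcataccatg
Kif13a: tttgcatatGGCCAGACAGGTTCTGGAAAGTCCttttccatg
Kif13b: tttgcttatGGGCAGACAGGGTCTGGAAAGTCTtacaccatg
Kif21a: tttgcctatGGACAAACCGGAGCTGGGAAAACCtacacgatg
Kif21b: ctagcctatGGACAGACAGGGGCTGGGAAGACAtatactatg
Kif23: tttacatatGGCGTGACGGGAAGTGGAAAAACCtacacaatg
Kif26a: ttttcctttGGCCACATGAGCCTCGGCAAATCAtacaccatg
Kif26b: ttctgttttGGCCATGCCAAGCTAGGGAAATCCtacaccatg
Counted from 1 at the first base of the P-loop, Kif13a and Kif13b were identical at 21 of 24 bases and differed by C3G, T12G and C24T, with the base of Kif13a first. Kif21a and Kif21b shared 19 of 24 bases and differed by A6G, C9A, A12G, A21G and C24A. Kif5a and Kif5c also shared 19 of 24, and differed by A3G, A9T, C12A, G18A and G24T.

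A few kinesins made up nearly all kinesin mRNA in every class. On the deposited RPKM scale, which divides by transcript length, Kif1b, Kif1a, Kif5a, Kif21a, Kif5b, Kif3a, Kif5c and Kif2a together took 95.8% ± 0.753 of the summed kinesin level (SD, n = 26 libraries, range 93.8% to 97.0%). Kif1b and Kif1a carry synaptic vesicle precursors, Kif1b also mitochondria, and Kif5a, Kif5b and Kif5c are the heavy chains of conventional kinesin. Of the 37 members, 15 averaged at least 10 CPM over the class means, 10 averaged 1 to 10 CPM and 12 less than 1 CPM. The 12 rarest were Kif27, Kif19a, Kif26a, Kif6, Kif7, Kif15, Kif4, Kif2c, Kif14, Kif18b, Kif12 and Kif2b, mostly spindle and ciliary motors.

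The order among the abundant kinesins depended on the length used. By RPKM Kif1b was first with 32.5% ± 5.21 of the kinesin total (SD, n = 26). With counts divided by 1 exon length per gene, the union of its GENCODE exons (17608 bases for Kif1b), it took 12.7% ± 2.28, below Kif21a with 19.8% ± 4.63 and Kif1a with 18.6% ± 4.35. All members together held 0.722% ± 0.0693 of the counts in proprioceptors (SD, n = 3) and 0.875% to 1.04% on average in the other 7 classes, and 0.883% ± 0.144 in A-fibre libraries (n = 17) against 0.938% ± 0.0807 in C-fibre libraries (n = 9). The total kinesin share therefore overlapped between thick and thin fibres.

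Most kinesins differed somewhere among the 8 classes. By edgeR's quasi-likelihood F test 26 of 35 passed at an adjusted p under 0.05, where 78.3% of all genes passed, so the share of members was close to the background. The 9 that did not pass were Kif1b, Kif3c, Kif11, Kif14, Kif15, Kif20a, Kif20b, Kif24 and Kif2c. Kif1b and Kif3c were thus among the abundant motors with no difference past the threshold over the classes as a whole.

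Between A fibres and C fibres the family split by gene. At an adjusted p under 0.05, 18 of 35 kinesins differed, where 56.5% of all genes did: 6 were higher in A fibres (28.4% of all genes) and 12 were lower (28.1%). Past a log2 fold change of 1 there were 7 (28.5% of all genes), namely Kif21b, Kif19a, Kif6 and Kif7 higher (15.6% of all genes) and Kif13b, Kif23 and Kif26a lower in A fibres (12.9%). Fold changes average the classes on the log scale, so they can differ from the ratio of the mean CPM. Of the 15 kinesins listed for axonal transport, Kif21b, Kif16b and Kif3a rose in A fibres and Kif13b, Kif13a, Kif3b, Kif5a, Kif5b and Kif1a fell, with a median log2 fold change of -0.13 over the 15 against 0.02 over all genes. The A-fibre libraries also held more satellite glia RNA: with the glial score as a covariate the call held for Kif21b, Kif13b and Kif23 and ended for the other 15 kinesins, while the share of all genes called fell to 20.6%.

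**Figure D1:**
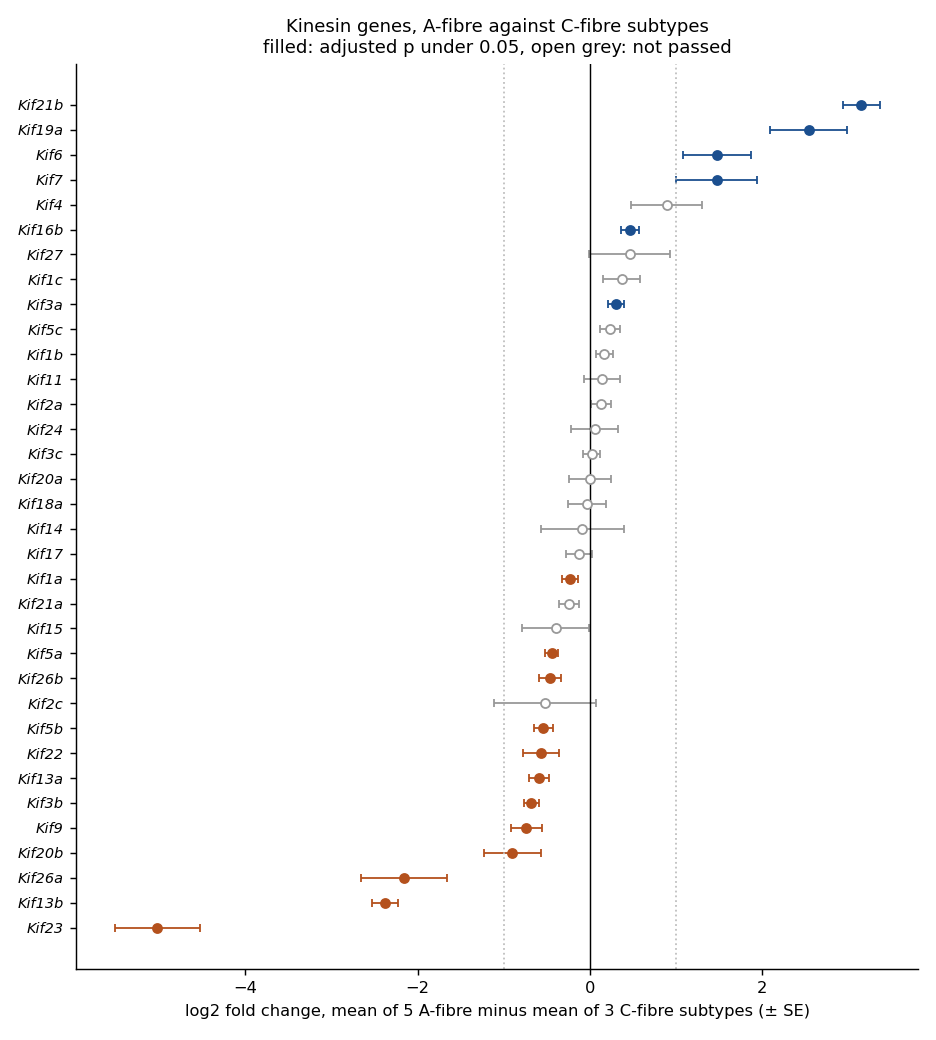
Log2 fold change of each kinesin gene, A-fibre minus C-fibre classes, with its standard error from edgeR (17 and 9 libraries), filled where the adjusted p was under 0.05. Kif21b stands at 3.15 and Kif13b at -2.38; Kif18b is not drawn because its standard error is far wider than the axis.

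Kinesin-1 is the motor that carries mitochondria, neurofilament proteins and many vesicles down the axon. Its heavy chain Kif5b (chr18:6201002-6242174, GRCm38) was lowest in proprioceptors, the class given the highest calibre tier. Kif5b had 205, 187 and 182 CPM in proprioceptors, 969.8, 811 and 851 CPM in Aβ Field-LTMRs, 649.9, 555 and 527 CPM in the Aβ SA1-LTMRs, 416, 537, 494, 281 and 286 CPM in Aβ RA-LTMRs, and 629, 569 and 327 CPM in Aδ-LTMRs. It had 608, 667 and 609 CPM in C-LTMRs, 533, 575 and 601 CPM in peptidergic nociceptors, and 874, 794 and 798 CPM in nonpeptidergic nociceptors. The 3 proprioceptor libraries lay below all 23 others. Proprioceptors averaged 191 ± 11.8 CPM (SD, n = 3) and the next class, Aβ RA-LTMRs, 403 ± 117 CPM (n = 5), a log2 difference of -1.07 ± 0.20 (SE, adjusted p = 0.000355). Kif5b was the one abundant kinesin that was depleted in proprioceptors against each of the other 7 classes (2.05% of all genes were), although with Aδ-LTMR libraries 1 and 2 left out the smallest difference was -0.77 with an adjusted p of 0.0659. The mean over A fibres was 511 CPM against 673 CPM in C fibres (log2 fold change -0.54 ± 0.11, adjusted p = 0.000133). Without proprioceptors that difference was -0.23 with an adjusted p of 0.0935, so the A-fibre value rested on 1 class.

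Kif5c (chr2:49619298-49774778) was spread in another way. Its levels were 492, 716 and 624 CPM in proprioceptors, 1719.8, 1541 and 1325 CPM in Aβ Field-LTMRs, 1047, 1144 and 1096 CPM in the Aβ SA1-LTMRs, 1088, 1440.5, 1382, 853 and 675 CPM in Aβ RA-LTMRs, and 1373, 1546 and 820.1 CPM in Aδ-LTMRs. They were 1684, 1812 and 1689.9 CPM in C-LTMRs, 736, 795 and 843 CPM in peptidergic nociceptors, and 580.4, 535 and 516 CPM in nonpeptidergic nociceptors. C-LTMRs and Aβ Field-LTMRs were high, and nonpeptidergic nociceptors and proprioceptors low. C-LTMRs exceeded nonpeptidergic nociceptors by 1.67 ± 0.23 on the log2 scale (adjusted p = 3.35e-06) and peptidergic nociceptors by 1.13 ± 0.23 (adjusted p = 0.000868), and the first of these was the largest of the 28 differences between classes for Kif5c. A fibres averaged 1114 CPM and C fibres 1021 CPM, and the difference of 0.24 ± 0.12 did not pass (adjusted p = 0.086).

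Kif5a (chr10:127225696-127263348), the neuronal heavy chain that is mutated in a human spastic paraplegia, varied least of the 3. It had 943, 738 and 692 CPM in proprioceptors, 1115, 797 and 892 CPM in Aβ Field-LTMRs, 855, 942 and 944 CPM in the Aβ SA1-LTMRs, 1126, 1075, 1219, 852 and 959 CPM in Aβ RA-LTMRs, and 760.4, 772 and 913 CPM in Aδ-LTMRs. In the C fibres it had 1185, 1245 and 1343 CPM in C-LTMRs, 1178, 1057 and 1185 CPM in peptidergic nociceptors, and 1179, 1304 and 1315 CPM in nonpeptidergic nociceptors. Every C-fibre library had at least 1057 CPM, a level that 4 of 17 A-fibre libraries reached. Means were 900.1 CPM in A fibres and 1221 CPM in C fibres (log2 fold change -0.45 ± 0.08, adjusted p = 2.27e-05). With the glial score in the model the difference was -0.30 (adjusted p = 0.338), and for Kif5b it was -0.44 (adjusted p = 0.321).

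The mix of kinesin-1 heavy chains is given for 3 classes as a description, without a test. By RPKM, Kif5a, Kif5b and Kif5c took 54.9%, 12.04% and 33.1% of the kinesin-1 level in proprioceptors, and 54.3%, 31.5% and 14.2% in nonpeptidergic nociceptors. In Aβ Field-LTMRs the shares were 27.3%, 42.9% and 29.8%. Counts over 1 exon length per gene gave 50.7%, 10.8% and 38.5% in proprioceptors, 50.3%, 28.6% and 21.1% in nonpeptidergic nociceptors, and 29.1%, 24.1% and 46.8% in Aβ Field-LTMRs. On both scales Kif5b had its smallest share in proprioceptors and Kif5c its smallest in nonpeptidergic nociceptors, while the rank of Kif5b in Aβ Field-LTMRs changed with the scale.

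**Figure D2:**
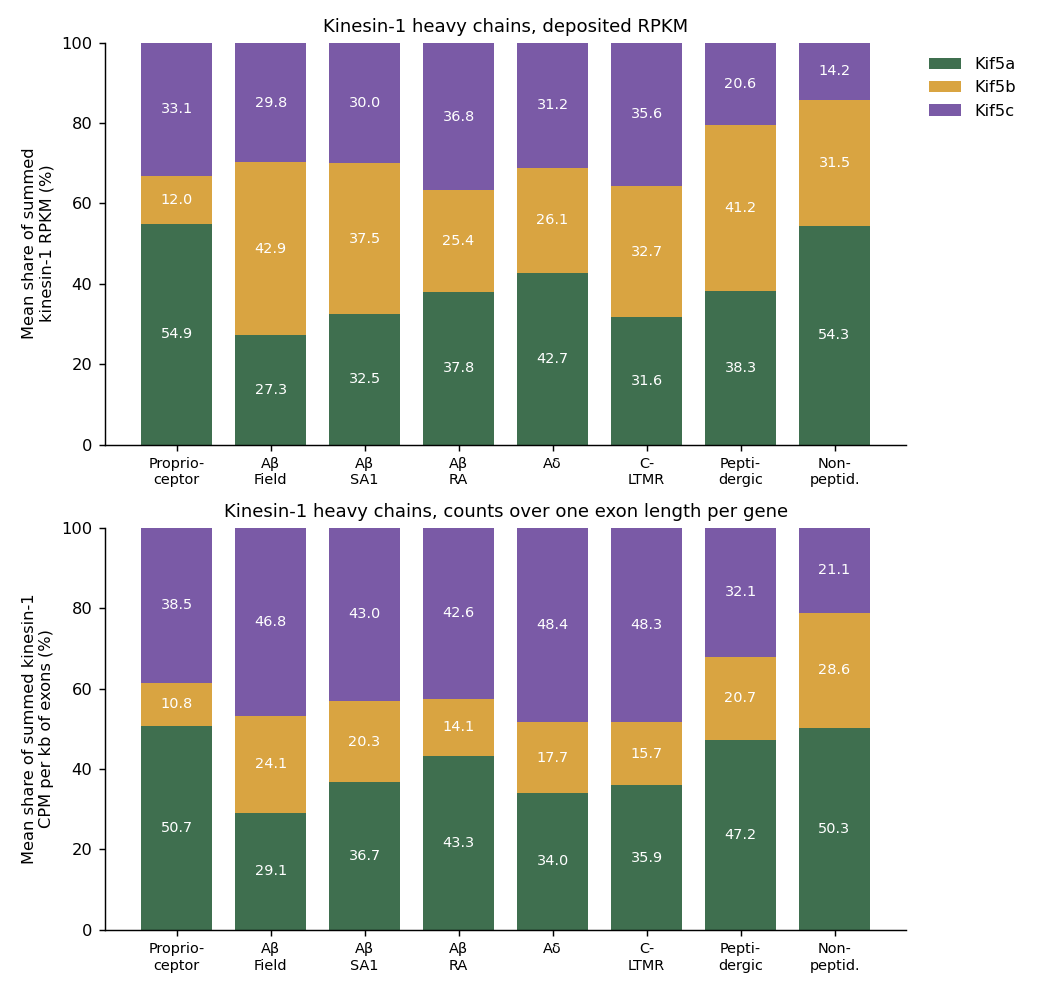
Mean share (%) of Kif5a, Kif5b and Kif5c in the summed kinesin-1 level of each class (n = 3 libraries, 5 for Aβ RA-LTMRs), from the deposited RPKM above and from CPM per kb of exons below. Kif5b takes 12.04% and 10.8% in proprioceptors, its lowest share in each panel, and Kif5c 14.2% and 21.1% in nonpeptidergic nociceptors.

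Kinesin-2 is built from Kif3a with Kif3b or Kif3c and moves vesicles in axons and cargo in cilia. Its 2 partner subunits moved in opposite directions. Kif3b (chr2:153291413-153333390) had 63.8, 52.6 and 54.9 CPM in proprioceptors, 99.5, 70.97 and 65.7 CPM in Aβ Field-LTMRs, 75.01, 54.02 and 63.5 CPM in the Aβ SA1-LTMRs, 64.7, 68.4, 67.9, 65.3 and 42.8 CPM in Aβ RA-LTMRs, and 75.2, 81.6 and 77.7 CPM in Aδ-LTMRs. It had 100.2, 97.4 and 96.8 CPM in C-LTMRs, 105, 102 and 106 CPM in peptidergic nociceptors, and 124, 130.5 and 116 CPM in nonpeptidergic nociceptors. All 9 C-fibre libraries had at least 96.8 CPM, a level that only Aβ Field-LTMR library 1 reached among the A fibres. A fibres averaged 68.0 CPM and C fibres 109 CPM (log2 fold change -0.68 ± 0.09, adjusted p = 1.67e-07). With the glial score as a covariate the difference was -0.28 (adjusted p = 0.4).

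Kif3a (chr11:53567379-53601967), the obligate subunit, had 366, 279 and 251 CPM in proprioceptors, 391, 265 and 333 CPM in Aβ Field-LTMRs, 251, 348 and 312 CPM in the Aβ SA1-LTMRs, 277, 341, 345, 283 and 202 CPM in Aβ RA-LTMRs, and 245, 221 and 196 CPM in Aδ-LTMRs. It had 266, 258 and 239.7 CPM in C-LTMRs, 258, 247 and 277 CPM in peptidergic nociceptors, and 199, 186 and 183 CPM in nonpeptidergic nociceptors. Nonpeptidergic nociceptors had the highest mean of Kif3b and the lowest of Kif3a. The means were 288 CPM in A fibres and 235 CPM in C fibres (log2 fold change 0.30 ± 0.10, adjusted p = 0.00942), with overlap between the libraries. By limma on log2(RPKM + 1) the difference was 0.09 (adjusted p = 0.637). Kif3c, the neuronal alternative to Kif3b, ranged from 121 to 272 CPM and did not pass (log2 fold change 0.02, adjusted p = 0.898), and 35.3% of its exon bases are shared with an antisense gene. Kif17, a homodimeric kinesin-2 of dendrites and cilia, ranged from 1.30 to 5.10 CPM.

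In kinesin-3, the motors of synaptic vesicle precursors and endosomes, Kif13b set thin fibres apart from thick ones. Kif13b (chr14:64647265-64809617) binds the scaffold Dlg1 and moves vesicles rich in phosphoinositides, and it has been linked to the transport of the heat-gated channel TRPV1. Its levels were 3.36, 1.81 and 2.20 CPM in proprioceptors, 5.33, 2.23 and 3.19 CPM in Aβ Field-LTMRs, 6.87, 4.46 and 3.72 CPM in the Aβ SA1-LTMRs, 4.70, 4.18, 4.53, 1.82 and 3.59 CPM in Aβ RA-LTMRs, and 6.67, 6.54 and 4.96 CPM in Aδ-LTMRs. They were 20.3, 22.7 and 23.1 CPM in C-LTMRs, 29.7, 27.5 and 27.8 CPM in peptidergic nociceptors, and 15.6, 15.3 and 12.7 CPM in nonpeptidergic nociceptors. The highest A-fibre library, 6.87 CPM, lay below the lowest C-fibre library, 12.7 CPM, and Kif13b was the one kinesin whose A-fibre and C-fibre libraries did not overlap (5.81% of all genes did not). Means were 4.18 CPM in A fibres and 21.6 CPM in C fibres (log2 fold change -2.38 ± 0.15, adjusted p = 5.52e-13). The fold change kept its sign and its call in every alternative run, and ran from -2.47 to -2.34 with 1 library left out. It was -1.91 with the glial score as a covariate (adjusted p = 0.00122) and -1.44 on the log2(RPKM + 1) scale, which understates the change of low genes.

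In descending order Kif13b ran from peptidergic nociceptors (28.4 ± 1.20 CPM, SD, n = 3) through C-LTMRs (22.0 ± 1.48) and nonpeptidergic nociceptors (14.5 ± 1.57) to Aδ-LTMRs (6.06 ± 0.949), and on to SA1, RA and Field Aβ-LTMRs and proprioceptors (2.45 ± 0.805). The single step between neighbours that passed was nonpeptidergic nociceptors over Aδ-LTMRs, by 1.26 ± 0.31 (adjusted p = 0.00161). That step falls at the border between the classes taken as C fibres and as A fibres.

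Kif13a (chr13:46749087-46929867), the paralogue that carries recycling endosomes, leaned the same way with overlap. It had 13.4, 14.8 and 14.8 CPM in proprioceptors, 21.7, 20.6 and 15.4 CPM in Aβ Field-LTMRs, 16.3, 11.1 and 10.1 CPM in the Aβ SA1-LTMRs, 19.9, 18.9, 22.3, 12.1 and 14.8 CPM in Aβ RA-LTMRs, and 36.2, 28.6 and 18.1 CPM in Aδ-LTMRs. It had 24.4, 26.9 and 28.04 CPM in C-LTMRs, 31.3, 29.4 and 31.8 CPM in peptidergic nociceptors, and 24.02, 24.2 and 20.5 CPM in nonpeptidergic nociceptors. Aδ-LTMRs, the A-fibre class with the lowest tier, overlapped the C fibres. A fibres averaged 18.3 CPM and C fibres 26.7 CPM (log2 fold change -0.59 ± 0.12, adjusted p = 0.000106). Of the RPKM of Kif13a and Kif13b together, Kif13b made 21.2% ± 6.19 in A-fibre libraries (SD, n = 17, range 11.5% to 33.2%) and 48.0% ± 4.03 in C-fibre libraries (n = 9, range 41.8% to 52.4%). The balance of the pair, too, did not overlap between the fibre types.

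Kif16b (chr2:142617474-142901531), which moves early endosomes, was low in nonpeptidergic nociceptors. Kif16b had 33.9, 30.7 and 25.9 CPM in proprioceptors, 32.4, 29.8 and 38.3 CPM in Aβ Field-LTMRs, 37.99, 45.6 and 49.5 CPM in the Aβ SA1-LTMRs, 42.6, 44.2, 41.3, 39.9 and 32.1 CPM in Aβ RA-LTMRs, and 60.5, 58.5 and 46.1 CPM in Aδ-LTMRs. It had 50.7, 54.7 and 54.2 CPM in C-LTMRs, 27.6, 25.4 and 32.2 CPM in peptidergic nociceptors, and 15.3, 22.4 and 9.94 CPM in nonpeptidergic nociceptors. The 3 nonpeptidergic libraries lay below all others, and Aδ-LTMRs and C-LTMRs had the highest means. The class averaged 15.9 ± 6.26 CPM, against 28.4 ± 3.46 CPM in peptidergic nociceptors, the nearest class (log2 difference -0.84 ± 0.21, adjusted p = 0.00265). The A-fibre mean was 40.6 CPM and the C-fibre mean 32.5 CPM (log2 fold change 0.46 ± 0.11, adjusted p = 0.000698). The C-LTMR libraries, at 50.7 to 54.7 CPM, lay above that A-fibre mean. Whether the difference holds without nonpeptidergic nociceptors was not tested. The edgeR slope over all calibre tiers did not pass (0.09 per tier, adjusted p = 0.104).

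The most abundant members of kinesin-3 were Kif1a and Kif1b. Kif1a (chr1:93015464-93101951) had 2179.9, 1909 and 1720.1 CPM in proprioceptors, 2303, 1288 and 1449 CPM in Aβ Field-LTMRs, 1564, 1976 and 1572 CPM in the Aβ SA1-LTMRs, 1435, 1749, 1943, 1637 and 1843 CPM in Aβ RA-LTMRs, and 1297, 1284 and 1682 CPM in Aδ-LTMRs. It had 1933, 1848 and 1878 CPM in C-LTMRs, 1777, 1744 and 1849 CPM in peptidergic nociceptors, and 2327, 2280.0 and 2277 CPM in nonpeptidergic nociceptors. Nonpeptidergic nociceptors had the highest mean and Aδ-LTMRs the lowest. A fibres averaged 1693 CPM and C fibres 1990 CPM (log2 fold change -0.23 ± 0.09, adjusted p = 0.0278), a call that was lost without Aδ-LTMR library 1 or without library 2 (adjusted p at most 0.059). Kif1b (chr4:149176319-149307693) had 2379.5, 2239 and 1979 CPM in proprioceptors, 3045, 1972 and 1882 CPM in Aβ Field-LTMRs, 2855, 3025 and 2663 CPM in the Aβ SA1-LTMRs, 2389, 3216, 3076, 2631 and 1688 CPM in Aβ RA-LTMRs, and 2295, 2366 and 1834 CPM in Aδ-LTMRs. It had 2298, 2285 and 2144 CPM in C-LTMRs, 2305, 2337 and 2471 CPM in peptidergic nociceptors, and 1937, 1918 and 1737 CPM in nonpeptidergic nociceptors. Its log2 fold change of 0.17 ± 0.10 did not pass (adjusted p = 0.154). Kif1c, a rare relative that runs between Golgi and endoplasmic reticulum, ranged from 0.901 to 8.27 CPM.

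In kinesin-4, Kif21b separated the classes widely. Kif21b (chr1:136131389-136177998) walks along microtubules and limits their growth, and its paralogue Kif21a, mutated in a human eye movement disorder, is far more abundant. The levels of Kif21b were 76.8, 66.7 and 57.8 CPM in proprioceptors, 4.71, 3.35 and 2.01 CPM in Aβ Field-LTMRs, 35.3, 75.8 and 44.8 CPM in the Aβ SA1-LTMRs, 19.01, 13.1, 17.7, 16.1 and 5.81 CPM in Aβ RA-LTMRs, and 10.6, 8.43 and 11.8 CPM in Aδ-LTMRs. They were 15.9, 18.98 and 17.1 CPM in C-LTMRs, 0.847, 1.65 and 1.90 CPM in peptidergic nociceptors, and 0.374, 0.185 and 0.348 CPM in nonpeptidergic nociceptors. Proprioceptors and Aβ SA1-LTMRs were highest and both kinds of nociceptor lowest, but C-LTMRs exceeded Aβ Field-LTMRs in every library. Means were 29.4 CPM in A fibres and 6.37 CPM in C fibres (log2 fold change 3.15 ± 0.22, adjusted p = 3.11e-12), and the call held in every alternative run, with 2.70 under the glial covariate (adjusted p = 0.000287) and 1.49 on the log2(RPKM + 1) scale.

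The order of Kif21b did not follow calibre class by class. Proprioceptors (67.1 ± 9.49 CPM, SD, n = 3) and Aβ SA1-LTMRs (52.0 ± 21.2, n = 3) did not differ past the threshold (0.37 ± 0.35, adjusted p = 0.455). C-LTMRs (17.3 ± 1.54), Aβ RA-LTMRs (14.3 ± 5.26, n = 5) and Aδ-LTMRs (10.3 ± 1.69) came next, with no neighbours among them apart. Then came Aβ Field-LTMRs (3.35 ± 1.35), 1.62 below Aδ-LTMRs on the log2 scale (adjusted p = 0.004), peptidergic nociceptors (1.46 ± 0.550), and nonpeptidergic nociceptors (0.302 ± 0.103), 2.23 ± 0.44 below the peptidergic ones (adjusted p = 0.000241). Among the Aβ classes alone, Field fell below SA1 by 3.95 on the log2 scale (adjusted p = 9.95e-07). These classes also differed in their range of read lengths. The share of Kif21b in the RPKM of Kif21a and Kif21b was 15.7% ± 3.78 in proprioceptors and 0.0716% ± 0.0664 in nonpeptidergic nociceptors.

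Kif21a (chr15:90933276-91049948) ranged from 644 to 2516 CPM over the 26 libraries. Its A-fibre mean of 1333 CPM and C-fibre mean of 1503 CPM did not differ past the threshold (log2 fold change -0.24 ± 0.11, adjusted p = 0.0751). Proprioceptors were low, with 794, 746 and 644 CPM, against 799 to 1855 CPM in the 11 Aβ libraries (log2 fold change -0.82 ± 0.19, adjusted p = 0.00196). The other kinesin-4 genes, Kif4, Kif7 and Kif27, averaged under 1 CPM.

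Kif26a and Kif26b form kinesin-11, whose motor domains do not hydrolyse ATP. Kif26a restrains GDNF and Ret signalling in enteric neurons of the mouse, and Kif26b acts in kidney development and downstream of Wnt5a. Both were enriched in peptidergic nociceptors against each of the other 7 classes, a call that 1.06% of all genes received there. Kif26b (chr1:178529125-178939200) had 7.21, 5.57 and 4.18 CPM in proprioceptors, 22.7, 13.2 and 10.2 CPM in Aβ Field-LTMRs, 15.6, 16.9 and 13.1 CPM in the Aβ SA1-LTMRs, 16.9, 19.3, 21.3, 17.7 and 11.6 CPM in Aβ RA-LTMRs, and 10.2, 9.10 and 8.26 CPM in Aδ-LTMRs. It had 10.1, 6.88 and 9.20 CPM in C-LTMRs, 34.4, 28.2 and 34.5 CPM in peptidergic nociceptors, and 16.1, 13.6 and 13.7 CPM in nonpeptidergic nociceptors. The 3 peptidergic libraries were above all others, and proprioceptors were lowest on average. Peptidergic nociceptors averaged 32.4 ± 3.61 CPM, against 17.4 ± 3.63 CPM in Aβ RA-LTMRs, the nearest class (log2 difference 0.90 ± 0.22, adjusted p = 0.00213).

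Kif26a (chr12:112146208-112181747) had 3.80, 2.87 and 3.21 CPM in peptidergic nociceptors and at most 0.474 CPM in each of the other 23 libraries. Its nearest class, C-LTMRs, averaged 0.330 ± 0.0164 CPM (log2 difference 3.31 ± 0.86, adjusted p = 0.00794), and the peptidergic level rested on 572 reads. Both genes were lower in A than in C fibres with this class in the C-fibre mean: without peptidergic nociceptors the log2 fold change of Kif26b was 0.044, in place of -0.46 ± 0.13 (adjusted p = 0.00329), and that of Kif26a was -0.58 with an adjusted p of 0.404, in place of -2.16 ± 0.50 (adjusted p = 0.000645).

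Kinesins of the mitotic spindle were rare in these neurons, and among them Kif23 had the smallest adjusted p between A and C fibres. Kif23 (chr9:61915905-61946774), the centralspindlin motor of cytokinesis, had 0, 0.318 and 0.102 CPM in proprioceptors, 0.208, 0.608 and 0.131 CPM in Aβ Field-LTMRs, 0, 0 and 0 CPM in the Aβ SA1-LTMRs, 0.236, 0, 0.460, 0.0444 and 0 CPM in Aβ RA-LTMRs, and 0.356, 0.372 and 0.291 CPM in Aδ-LTMRs. In C fibres it had 5.69, 9.88 and 3.68 CPM in C-LTMRs, 0.367, 1.15 and 0.838 CPM in peptidergic nociceptors, and 6.11, 4.18 and 4.96 CPM in nonpeptidergic nociceptors. C-LTMRs and nonpeptidergic nociceptors lay above all other libraries, and peptidergic nociceptors lay close to the A fibres. Over all libraries there were 119 reads in A fibres and 1953 in C fibres, and the CPM of the summed reads were 0.163 in A fibres and 3.94 in C fibres, 24.1 times as much in C fibres. The fitted log2 fold change was -5.02 ± 0.50 (adjusted p = 6.39e-09), and -6.26 with the glial covariate (adjusted p = 0.00268). In Aβ SA1-LTMRs no read was counted, which against a floor of 3 counts over the class places Kif23 at least 355-fold lower than in C-LTMRs, within counting error only.

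Of 11 mitotic kinesins tested, Kif23, Kif20b and Kif22 were lower in A fibres, a share close to the 28.1% of all genes, and none was higher (28.4% of all genes were). For the 11, the median log2 fold change was -0.09 against 0.02 over all genes. Kif20b, also of cytokinesis, averaged 1.49 CPM in A fibres and 2.87 CPM in C fibres (log2 fold change -0.90 ± 0.33, adjusted p = 0.0232). Kif22, a chromosome-binding motor, had 5.16, 4.87 and 5.76 CPM in C-LTMRs and 0.437 to 2.53 CPM in every other library. It was enriched in C-LTMRs (1.39% of all genes were), by 1.41 ± 0.42 over Aδ-LTMRs (adjusted p = 0.013, and 0.0513 without Aδ-LTMR library 1). Of 16 markers of proliferating cells 3 were higher and none lower in A fibres, with a summed level of 12.2 to 28.5 CPM in A-fibre libraries and 10.8 to 17.6 CPM in C-fibre libraries. Kif11, Kif14, Kif15, Kif18a, Kif18b, Kif20a, Kif2c and Kif4 did not pass between A and C fibres.

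The starts of Kif23 and Kif26a are shown because these genes were near 0 outside 1 to 3 classes, and that of Kif26b because it shares the peptidergic enrichment of its paralogue. The 100 bases before each start (RefSeq, GRCm38.p6) are on the gene's strand, with capitals for the CHR element TTTGAA or TTCAAA of cell cycle genes, the CCAAT box (CCAAT or ATTGG) and the GC box (GGGCGG or CCGCCC).
Kif23, chr9:61946800-61946899, minus strand: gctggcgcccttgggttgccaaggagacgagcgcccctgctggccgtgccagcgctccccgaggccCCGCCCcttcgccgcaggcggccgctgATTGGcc
Kif26a, chr12:112146108-112146207, plus strand: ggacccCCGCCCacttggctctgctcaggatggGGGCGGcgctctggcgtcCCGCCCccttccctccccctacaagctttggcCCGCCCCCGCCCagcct
Kif26b, chr1:178529025-178529124, plus strand: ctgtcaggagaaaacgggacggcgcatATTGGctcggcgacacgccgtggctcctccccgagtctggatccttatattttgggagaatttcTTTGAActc
In the 250 bases before the start, Kif23 held 1 CCAAT box and 2 GC boxes with no CHR match, Kif26a 6 GC boxes, and Kif26b 1 match of each kind. Over 32851 such windows of all genes, 16.0% held the CHR letters, 33.9% a CCAAT box and 32.7% a GC box, and of 35 windows of 31 kinesin genes 8, 15 and 21 did. The matches are letters in a window and were not tested for binding.

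The ciliary and depolymerising kinesins were mostly near the floor. Of 9 kinesins listed for cilia, Kif3a, Kif6, Kif7 and Kif19a were higher and Kif3b and Kif9 lower in A fibres, where 28.4% of all genes were higher and 28.1% lower. Kif19a, which trims cilia in mice, averaged 0.798 CPM in A fibres and 0.201 CPM in C fibres (log2 fold change 2.54 ± 0.45, adjusted p = 3.07e-05), and Kif6 0.681 against 0.314 CPM (1.48 ± 0.39, adjusted p = 0.0025). Over the 8 classes the levels of Kif19a and Kif7, a Hedgehog regulator at the cilium tip, ran with the satellite glia score, with a Pearson r of 0.94 for Kif19a and 0.88 for Kif7, from points that share their libraries. Kif9, a motor of motile cilia, averaged 2.85 CPM in A fibres and 4.68 CPM in C fibres (log2 fold change -0.74 ± 0.18, adjusted p = 0.0013). Kif2a, a depolymerase that limits collateral branches, ranged from 109 to 251 CPM with no difference past the threshold between A and C fibres (0.13, adjusted p = 0.381). An antisense gene shares 19.2% of the exon bases of Kif2a, 19.1% of those of Kif7, 15.1% for Kif4 and 29.3% for Kif20a. Whether its reads entered these counts was not tested. Kif24, Kif27 and Kif17 did not pass in that comparison.

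Set against the calibre tiers, 18 of 35 kinesins had a slope past the threshold, where 56.7% of all genes did: 6 higher with calibre (28.9% of all genes) and 12 lower (27.8%). Kif21b was 1.53 ± 0.09 higher per tier on the log2 scale (adjusted p = 2.46e-13) and Kif13b fell by 1.08 per tier (adjusted p = 4.6e-12). Kif3b fell by 0.32 per tier (adjusted p = 1.4e-07) and Kif5b by 0.36 (adjusted p = 7.79e-07). Proprioceptors carried part of this. Without them 6 slopes no longer passed: Kif5b (-0.09, adjusted p = 0.226), Kif21a (-0.10, adjusted p = 0.176), Kif26b (adjusted p = 0.995), Kif4 (adjusted p = 0.1071), Kif7 (adjusted p = 0.0724) and Kif20b (adjusted p = 0.0538). Those of Kif5c (0.22, adjusted p = 0.00568), Kif16b (0.22, adjusted p = 0.00252) and Kif1b (0.13, adjusted p = 0.0415) passed.

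Neurofilament level gave a second scale, since neurofilaments fill thick axons. The mean log2 CPM of Nefl, Nefm and Nefh was 11.95 in proprioceptors, 12.46 to 12.67 in the Aβ classes and 11.73 in Aδ-LTMRs, against 8.99 in C-LTMRs, 10.27 in peptidergic and 9.12 in nonpeptidergic nociceptors. It parted A from C fibres but placed proprioceptors below the Aβ classes, and peptidergic nociceptors above the other C-fibre classes. Over the 8 class means Spearman's rho with this level was -0.86 for Kif23, -0.76 for Kif13b, -0.69 for Kif3b, 0.86 for Kif3a and 0.26 for Kif21b, as a description of 8 points that share their libraries. Kif21b thus had the largest slope over tiers among the higher genes and a weak rank relation to neurofilament mRNA.

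**Figure D3:**
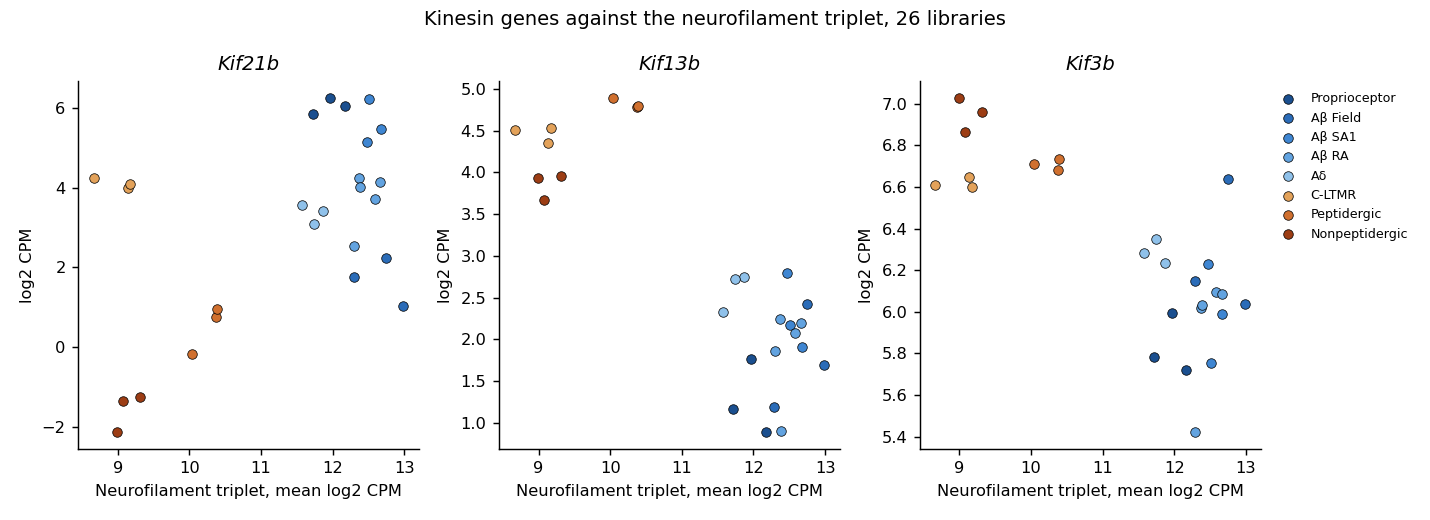
Log2 CPM of Kif21b, Kif13b and Kif3b in each of 26 libraries against the mean log2 CPM of the neurofilament triplet in the same library, coloured by class. C-fibre classes lie at mean neurofilament levels of 8.99 to 10.27 and A-fibre classes at 11.73 to 12.67; Kif13b separates the fibre types and Kif21b spreads widely within each.

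Aβ-LTMRs against Aδ-LTMRs asked about a smaller step in calibre among myelinated touch fibres. There 8 of 35 kinesins differed, where 25.3% of all genes did, 3 higher in Aβ (8.92% of all genes) and 5 lower (16.3%). Markers of other cells were lower in Aβ too: 10 of 11 endothelial markers, with a summed level of 6.07 to 20.5 CPM in Aβ libraries and 42.3 to 84.4 CPM in Aδ libraries, and 5 of 7 tested pericyte markers, with 5.14 to 37.3 CPM in Aβ libraries and 182 to 539.9 CPM in Aδ libraries. So were 6 of 8 fibroblast markers (16.3 to 61.96 CPM in Aβ libraries and 61.2 to 86.4 CPM in Aδ libraries), 7 of 15 satellite glia markers and 4 of 9 tested markers of myelinating Schwann cells. None of these lists had a marker at 0 in every library of either group, and their part in the kinesin differences was not tested beyond the glial score. Kif26b averaged 16.0 CPM in the Aβ classes and 9.18 CPM in Aδ-LTMRs (log2 fold change 0.80 ± 0.22, adjusted p = 0.0081), and Kif3a 308 CPM against 221 CPM (0.48 ± 0.15, adjusted p = 0.0231). Kif13a averaged 16.5 CPM in the Aβ classes and 27.7 CPM in Aδ-LTMRs (-0.77 ± 0.18, adjusted p = 0.00236), and Kif21a and Kif16b were lower as well. Kif3c was higher as well, a call lost in 18 of 26 omissions of 1 library (adjusted p up to 0.151). The call of Kif13a was lost without Aδ-LTMR library 1 (-0.50, adjusted p = 0.0956), and those of Kif3a, Kif16b and Kif21a in 2 omissions each. Kif23 and Kif26a were lower, and these 2 were the ones past a log2 fold change of 1 (13.5% of all genes). Both were near the floor, with 0.155 CPM in Aβ against 0.339 CPM in Aδ for Kif23, and 0.0619 against 0.258 CPM for Kif26a. Aδ-LTMR libraries 1 and 2 had their own range of read lengths. With the read-length range as a covariate none of the 8 calls held in edgeR (3 kinesins had an unadjusted p under 0.05). In that run the share of all genes called fell to 4.37%. With both libraries left out 1 kinesin, Kif5b, was called, where 6.61% of all genes were, and the sign of Kif21a turned to 0.23.

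Proprioceptors against Aβ-LTMRs took the step to the highest calibre tier. Of 35 kinesins 13 differed, where 31.8% of all genes did, 5 higher in proprioceptors (17.7% of all genes) and 8 lower (14.1%). With the read-length range as a covariate 9 differed, 4 higher and 5 lower, where 20.9% of all genes did. Kif21b averaged 67.1 CPM in proprioceptors and 23.2 CPM in the Aβ classes (log2 fold change 2.30 ± 0.25, adjusted p = 1.58e-07). Kif5b averaged 191 CPM in proprioceptors and 619 CPM in the Aβ classes (-1.62 ± 0.19, adjusted p = 6.01e-07), and Kif5c 610.4 CPM against 1237 CPM (-1.0004 ± 0.19, adjusted p = 0.000327). Kif26b was lower by 1.51 ± 0.23 on the log2 scale (5.65 against 16.0 CPM, adjusted p = 1.81e-05) and Kif2a by 0.75 ± 0.20 (117 against 197 CPM, adjusted p = 0.0057). Past a log2 fold change of 1 there were 7 (17.0% of all genes). Kif13b, Kif17, Kif21a and Kif9 were also lower, and Kif1c, Kif15, Kif18b and Kif26a higher. Proprioceptors averaged 6.64 CPM of Kif1c, against 3.74 CPM in the Aβ classes. Kif15, Kif18b and Kif26a were past a log2 fold change of 1 but under 1 CPM. Their means were 0.758 against 0.261 CPM for Kif15, 0.202 against 0.0423 CPM for Kif18b, and 0.284 against 0.0619 CPM for Kif26a. Of 15 satellite glia markers 10 were higher in proprioceptors too. With the glial covariate Kif21b, Kif5b, Kif5c, Kif26b, Kif21a and Kif2a passed and the other 7 did not. In that run the share of all genes called fell to 11.4%.

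Within 1 fibre type the kinesins differed as well. Among the 3 C-fibre classes 11 of 35 passed, where 45.3% of all genes did, and among the 3 Aβ classes 7, where 26.9% did. In C fibres these were Kif5c, Kif13b, Kif16b, Kif21b, Kif26a, Kif26b, Kif23, Kif22, Kif19a, Kif27 and Kif6, and in Aβ fibres Kif5b, Kif21b, Kif1c, Kif23, Kif26a, Kif4 and Kif7. Aβ Field-LTMRs exceeded Aβ RA-LTMRs in Kif5b by 1.12 ± 0.19 on the log2 scale (adjusted p = 0.000131). In all, 9 kinesins were enriched or depleted in 1 class against each of the other 7, where 20.9% of all genes were. Beside those named, Kif21b, Kif16b, Kif19a and Kif6 were depleted in nonpeptidergic nociceptors (7.82% of all genes) and Kif23 in Aβ SA1-LTMRs (0.948%). The values of Kif19a and Kif6 rested on 4 and 11 reads. With 1 library left out at a time, the call of Kif19a was lost in 4 omissions (adjusted p up to 0.139). That of Kif6 was lost in 5 (up to 0.152) and that of Kif23 in 3 (up to 0.0976). With the glial score as a covariate none of the 9 held in edgeR (6 kinesins met the rule at unadjusted p-values), with adjusted p-values of 0.0864 for Kif26b and 0.0688 for Kif5b.

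Partners of kinesins were called in shares near or below the 56.5% of all genes that differed between A and C fibres (28.4% higher, 28.1% lower). Among 6 light chains and accessory subunits, Klc2, a kinesin-1 light chain, rose to 176 CPM in A fibres, against 97.5 CPM in C fibres (log2 fold change 0.84 ± 0.11, adjusted p = 2.27e-07), and none fell. Of 26 cargo adaptors 7 rose and 8 fell: Clstn3, a calsyntenin, averaged 52.2 CPM in A fibres and 8.43 CPM in C fibres (3.44 ± 0.14, adjusted p = 1.39e-16), and Ppfia2, a liprin that links kinesin-3 to vesicles, 43.1 CPM against 138 CPM (-1.69 ± 0.09, adjusted p = 5.14e-14). Of 11 cytoplasmic dynein subunits, the motor of the return journey, 1 rose and 3 fell, with the light chains apart: Dynll2 averaged 180.1 CPM in A fibres and 116 CPM in C fibres (0.63 ± 0.12, adjusted p = 4.39e-05), and Dynll1 88.6 CPM against 185 CPM (-0.81 ± 0.16, adjusted p = 0.000116). Of 16 dynactin and dynein regulators 1 rose and 7 fell.

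Tubulins and their associated proteins, the track on which kinesins walk, were split as well. Of 12 tubulins 5 rose and 4 fell in A fibres, and of 17 microtubule-associated proteins 8 rose and 7 fell, where 28.4% of all genes rose and 28.1% fell. Tuba4a averaged 352 CPM in A fibres and 50.3 CPM in C fibres (log2 fold change 3.48 ± 0.19, adjusted p = 3.64e-14), and Tubb2b 12.04 CPM against 43.9 CPM (-2.98 ± 0.26, adjusted p = 3.82e-10). Map2 averaged 402 CPM in A fibres and 119.8 CPM in C fibres (2.28 ± 0.15, adjusted p = 6.55e-13), and Dcx, which stabilises microtubules of growing neurites, 3.70 CPM against 39.3 CPM (-2.9996 ± 0.29, adjusted p = 1.89e-09).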

How the data were processed

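RNA of sorted neurons was amplified (NuGEN) before TruSeq library preparation, per the labels' protocols, in 26 samples. The authors deposited raw counts per gene and RPKM (reads relative to transcript length and library depth), and a summary that gives mapping and exonic shares as a fraction. The submitters' processing notes list mm10, FastQC 0.11.3, Cuffdiff, HTSeq 0.6.1, STAR and DESeq2 1.14.1 without their roles, and whether counting used strand is not given in the sources used here. A deposited table of log2 values (rlog) was not used here.

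Tests used the counts in edgeR 4.0.16 (R 4.3.3) over all 26 libraries: filterByExpr, TMM, estimateDisp and a robust glmQLFit, with Benjamini-Hochberg adjustment over 17411 genes and a call at adjusted p under 0.05. CPM use TMM-scaled library totals, and each A-fibre or C-fibre mean is a mean of class means. The fit was tested on simulated counts. Alternatives used DESeq2 1.42.0, limma 3.58.1 on log2(RPKM + 1), other factors and filters, covariates and omissions. Biopython 1.88, matplotlib 3.10.9, SciPy 1.17.1, pandas 2.3.3 and NumPy 2.4.6 (Python 3.11.15) made the tables, sequences and figures. The P-loops come from the longest open reading frame of each gene's GENCODE M21 transcripts.

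The members and lists were chosen with earlier results of these data known. Values per library are given for members with a mean of at least 10 CPM that had the largest fold changes between A and C fibres, were particular to a class, varied most over classes, or belong to kinesin-1, Kif1a, Kif1b, Kif3a or Kif3b. Kinesins below 10 CPM, such as Kif23, Kif26a and Kif22, were named after their values were seen. The covariates of exonic share, the omission of Aδ-LTMR libraries 1 and 2 and the fixed exon length were chosen after seeing the data.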

Additional observations from a re-analysis of the deposited data

Results flagged for a closer look

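Among the 15 kinesins with at least 10 CPM, 1 value stood apart within the 5 Aβ RA-LTMR libraries, the one class with enough libraries to screen. Kif3b had 42.8 CPM in library 5 and 64.7 to 68.4 CPM in the other 4, so that the gap took 0.855 of the whole range, above the limit of 0.71 for 5 values. Library 5 also had the lowest exonic share of all 26, 45.7%, and whether this bears on Kif3b was not tested. Chance alone flags about 1 in 20 groups.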

How the results depend on the processing

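Of 105 counts of kinesins under other settings 77 stayed within 1.5 times the main count, and of 458 values of single genes 353 kept direction and call. Asking for a log2 fold change of at least 1 left 7 kinesins between A and C fibres, 4 for the slope, 2 for Aβ against Aδ and 7 for proprioceptors against Aβ. DESeq2 gave 11 among the Aβ classes, as did the exonic share and the read-length range as covariates. limma on log2(RPKM + 1) or log2(RPKM + 0.1) gave 2 for Aβ against Aδ and 7 for proprioceptors against Aβ. It gave 4 among Aβ classes and 4 enriched or depleted, and without a filter 2, 9, 4 and 4. The shares of all genes for Aβ against Aδ were 19.6%, 19.0% and, without a filter, 11.1%. For proprioceptors against Aβ these shares were 29.0%, 28.9% and 15.6%. The glial score as a covariate left 3 between A and C fibres (20.6% of all genes) and 4 for the slope (22.6%). It left 1 for Aβ against Aδ (11.6% of all genes) and 6 for proprioceptors against Aβ (11.4%). With the score 7 passed among C fibres and 2 among Aβ classes. By edgeR 0 were enriched or depleted (6 at an unadjusted p under 0.05), and DESeq2 and limma were not run with the score. The score itself differs between the groups, so the glial share and the fibre type cannot be told apart. The read-length range left 0 by edgeR for Aβ against Aδ (3 at an unadjusted p under 0.05), where 4.37% of all genes were called. It left 5 enriched or depleted, and no other tool was run with it. A further setting left out Aδ-LTMR libraries 1 and 2. The last setting leaves 1 Aδ-LTMR library, assumed to vary like the others. The cause of the other changes was not tested.

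Leaving out 1 library at a time gave 17 to 20 kinesins between A and C fibres, 16 to 19 for the slope, 2 to 9 for Aβ against Aδ (2 without Aδ-LTMR library 1 and 3 without library 2), 9 to 15 for proprioceptors against Aβ, 23 to 30 over the 8 classes, 8 to 13 among C fibres, 4 to 9 among Aβ classes (4 without Aβ RA-LTMR library 1) and 7 to 10 enriched or depleted. Signs turned for Kif26b between A and C fibres without peptidergic nociceptors (0.044), for Kif1b by limma on RPKM (-0.023 in all 3 forms) and with the read-length range (-0.021), for Kif5c with the read-length range (-0.14), and for Kif21a in Aβ against Aδ without Aδ-LTMR libraries 1 and 2 (0.23). With the replicate number as a block there were 20 kinesins between A and C fibres, 8 for Aβ against Aδ and 16 for proprioceptors against Aβ. Deviations of same-numbered libraries had median correlations of -0.00605, 0.00737 and 0.00507, with single pairs up to 0.239. Pairs of different numbers reached 0.244. No pairing by number was seen, but these correlations cannot exclude a batch shared by some libraries. Rare kinesins rest on few reads, and counts below about 1 CPM limit what can be said of Kif19a, Kif6, Kif7, Kif4, Kif15 and Kif18b. The same holds for Kif23 within A fibres and for Kif26a outside peptidergic nociceptors.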

Other observations

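The ratio of deposited RPKM to CPM, which would be constant if 1 length served each gene in every class, varied for some kinesins. For Kif5b it was 0.122 in proprioceptors and 0.138 in nonpeptidergic nociceptors, against 0.328 in C-LTMRs and 0.330 in peptidergic nociceptors. Its highest over lowest ratio of 2.70 was larger than that of 98.0% of 7950 genes with at least 10 CPM, whose median was 1.49. For Kif1b the ratio was 1.96 and for Kif5c 1.67, while Kif5a (1.27), Kif13a (1.23), Kif3b (1.26) and Kif13b (1.28) lay below the median. Transcript lengths per class were not analysed here, and the cause was not tested.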
